A study of Homo sapiens with 27 samples.

Results

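MITF and 7 other transcription factors of the melanocyte lineage (SOX10, PAX3, TFAP2A, SOX9, LEF1, ZEB1 and ZEB2) were followed in 501mel cells, an established human melanoma cell line with high MITF. The genes were taken by symbol from the deposited table of normalised read counts, which gave 7 of its 13523 genes. SOX9 was not analysed here, and 6 of the 7 passed the filter on low values, ZEB1 being the exception. The RNA was read with the QuantSeq Forward kit, where a read marks the 3′ end of a transcript, so a value is a total per gene and the isoforms of MITF were not separated. WT cells, which carry both TFE3 and TFEB, were non-treated (WT control), kept in HBSS for 12 h or treated with 250 nM Torin for 12 h. TFE3 KO, TFEB KO and DKO (both genes) cells were kept for 12 h as controls (12h CTRL) or with Torin for 12 h. The labels give DMEM with serum as the growth medium of all lines, while the study's methods give RPMI medium with serum for human melanoma lines other than HBL. Each of the 9 groups was labelled with 3 libraries.

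HBSS is a balanced salt solution that carries no amino acids, and Torin is an inhibitor of the kinase mTOR. HBSS differs from growth medium in more than amino acids, and the parts of these differences were not separated. The knockouts were made with Cas9 and each is 1 clone, so genotype and clone cannot be told apart. The WT control was labelled non-treated while the knockout controls were labelled as 12 h controls, so this difference in label goes with genotype as well. The labels do not say whether the libraries of a group came from separate cultures, and p-values then measure only the spread between these libraries.

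The columns labelled WT HBSS replicate 3 and WT Torin replicate 1 held the same value in all 13523 genes. Both were left out, which gave 25 libraries, with n = 2 for WT HBSS and WT Torin and n = 3 for the other groups. In the doubled column MITF was 1500 and LEF1 46.8. The WT HBSS libraries kept held 1392 and 1454 for MITF and 47.6 and 51.1 for LEF1. The WT Torin libraries kept held 735 and 732 for MITF and 145 and 142 for LEF1. TFAP2A, at 643 in the doubled column, was nearer WT Torin (694 and 736) than WT HBSS (833 and 813). In that column 12917 genes had a read, against 12895 and 12901 in WT HBSS and 13188 and 13181 in WT Torin. Which label is right was not tested. The 25 libraries held 4147050 to 6526392 reads, and the detection floor of 3 reads stood at a value of 0.460 to 0.711 (counting error only). TFE3 was 24.0 ± 0.285 (SD, n = 3) in WT control, 6.30 ± 1.27 (SD, n = 3) in TFE3 KO control and 6.35 ± 0.470 (SD, n = 3) in DKO control. TFEB was 3.25 ± 0.827 (SD, n = 3) in WT control, 1.11 ± 0.485 (SD, n = 3) in TFEB KO control and 0.661 ± 0.457 (SD, n = 3) in DKO control, and it was also low, at 0.681 ± 0.764 (SD, n = 3), in TFE3 KO control. All 8 melanocyte markers searched were present, with PMEL, a structural protein of the pigment granule, at 1938 or more in every library. Of 6 fibroblast markers COL1A1 and LUM were among the genes read here and together reached at most 6.62, and of 6 keratinocyte markers KRT10 was, at 48.1 to 117. COL1A2, COL3A1, DCN, PDGFRB, KRT5, KRT14, KRT1, TP63 and DSG3 were not among the genes read here, nor were any of 5 leukocyte and 4 endothelial markers.

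MITF is a basic helix-loop-helix leucine zipper factor that drives pigment cell survival and pigment genes, and TFE3 and TFEB are its close relatives. In melanocytes a promoter within the MITF gene is used, and SOX10, PAX3, CREB and LEF1 with β-catenin are known to act on it. TFAP2A binds beside MITF at pigment genes, while ZEB2 and ZEB1 are zinc finger repressors that are known to replace each other when melanoma cells change state, ZEB2 going with high MITF.

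The sequence before the start of the melanocyte transcript of MITF is shown because factors named here are known to act on it, together with the ZEB2 window that held the 8-base form of the MITF motif. Both came from RefSeq promoter windows of GRCh38.p14, which run from 250 bases before to 50 bases after a transcript start. The MITF stretch lies at chr3:69936342-69936586 on the plus strand, within an intron of the longer MITF transcripts and just before the annotated exons that begin there. The ZEB2 stretch lies at chr2:144520282-144520311 on the minus strand, where exons of other ZEB2 transcripts and of ZEB2-AS1 on the opposite strand are annotated. Capitals mark the motifs that were found.
MITF: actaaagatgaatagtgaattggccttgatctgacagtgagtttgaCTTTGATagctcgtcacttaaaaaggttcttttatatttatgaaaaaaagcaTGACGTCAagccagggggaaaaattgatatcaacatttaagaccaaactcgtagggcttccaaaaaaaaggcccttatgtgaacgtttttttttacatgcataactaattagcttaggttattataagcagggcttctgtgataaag
ZEB2: cgatcacgtttTCACATGAtgctcacgctc

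In the MITF stretch TGACGTCA, the cyclic AMP response element, began 152 bases before the start and CTTTGAT, the core letters of TCF and LEF factors, began 204 bases before it. Of all 35116 promoter windows, 1.85% held TGACGTCA and 2.62% held CTTTGAT on either strand. TCACATGA, a form of the motif of MITF, TFE3 and TFEB, began 181 bases before the ZEB2 start, and 1.0% of all windows held it. It contains CACATG, the reverse complement of CATGTG, which 11.1% of windows held. The remaining motifs searched were CACGTG (7.26% of windows), TCACGTGA (0.980%), CACCTG, the core of ZEB motifs (20.6%), and ACAAAG, the core of SOX motifs (16.1%). The ZEB2 window and a further MITF window also held ACAAAG, ZEB1 windows held CACCTG or CATGTG, and the TFAP2A, LEF1 and PAX3 windows held none of the 8 motifs. No SOX10 window was matched. CTTTGAT was added to the search after the sequences had been seen. A match is a description of letters and not evidence of binding.

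**Figure D1:**
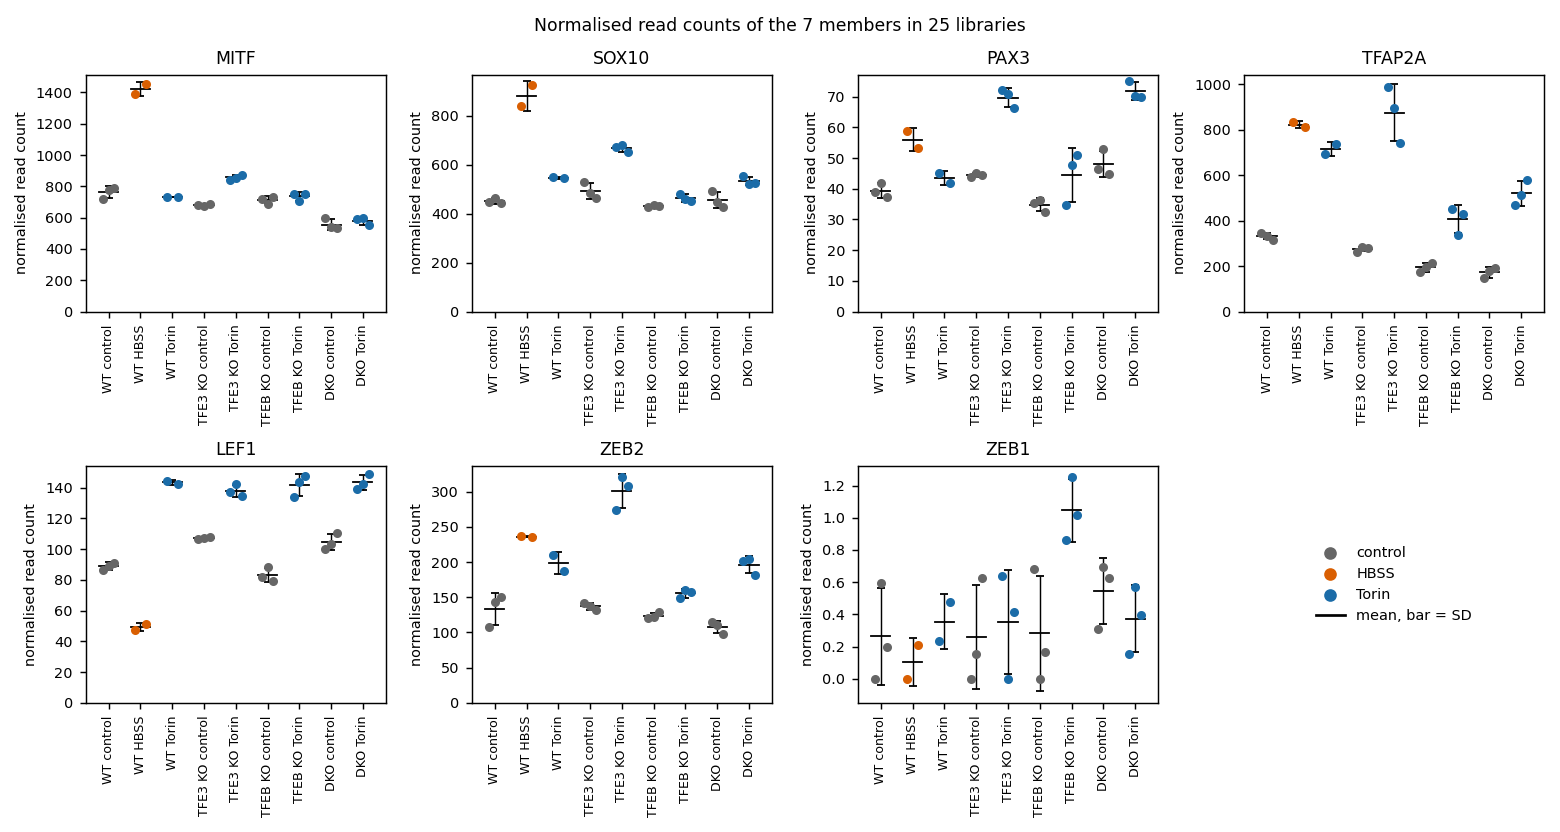
Normalised read counts (vertical axes, linear) of the 7 genes in each of 25 libraries, by group, in grey for controls, orange for HBSS and blue for Torin, with the group mean as a line and the SD as a bar. MITF and SOX10 were highest in HBSS, LEF1 was lowest there and higher with Torin in every genotype, and ZEB1 stayed at or under 1.26.

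The question of the first comparison was what 12 h in HBSS did to the lineage factors of WT cells. All 6 members that could be tested passed (adjusted p under 0.05), against 48.3% of all 13052 genes tested: 5 rose (23.6% of all genes did) and LEF1 alone fell (24.7% of all genes did). TFAP2A rose most, and it was the only member that was also changed at least 2-fold, as 13.1% of all genes were. The median log2 fold change of the 6 was 0.87, and that of all genes was -0.03. The HBSS group rests on n = 2.

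MITF (chr3:69739456-69968336, plus strand) was 719, 778 and 788 in the WT control libraries and 1392 and 1454 in HBSS. The groups did not overlap, and the log2 fold change was 0.90 ± 0.07 (SE, adjusted p 1.55e-15). SOX10 (chr22:37970686-37987422, minus strand), the neural crest factor that activates MITF, was 447, 466 and 443 in control and 838 and 924 in HBSS. Both HBSS libraries were above every library of the other 8 groups, and the change was 0.96 ± 0.07 (SE, adjusted p 1.36e-15). PAX3 (chr2:222199887-222298998, minus strand), a paired box factor that acts with SOX10, was 38.8, 42.0 and 37.5 in control and 58.7 and 53.4 in HBSS. Its rise was the smallest of the 6 at 0.50 ± 0.12 (SE, adjusted p 0.000807), and 42.5% of all genes moved further.

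TFAP2A (chr6:10393186-10419659, minus strand) was 347, 334 and 317 in control and 833 and 813 in HBSS. The change was 1.31 ± 0.12 (SE, adjusted p 2.23e-09), which 6.15% of all genes exceeded in size. ZEB2 (chr2:144364364-144521057, minus strand) was 108, 143 and 150 in control and 237 and 235 in HBSS, without overlap, with a change of 0.83 ± 0.10 (SE, adjusted p 1.22e-09). LEF1 (chr4:108047545-108168956, minus strand), the nuclear partner of β-catenin, was 86.4, 89.3 and 91.1 in control and 47.6 and 51.1 in HBSS. It changed by -0.84 ± 0.09 (SE, adjusted p 3.79e-11), and the HBSS libraries were the lowest of all 25. Summed melanocyte markers moved in the same direction as MITF, from 6157 to 6290 in WT control to 13340 to 13706 in HBSS, and their part in the result was not tested. In bulk RNA, fewer cells of a type and less RNA per cell cannot be told apart.

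Torin moved the same factors in another pattern. TFAP2A, LEF1 and ZEB2 rose in all 4 genotypes, whereas MITF rose in TFE3 KO and did not pass in WT, TFEB KO or DKO. In WT 4 of 6 members passed and all 4 were higher, against 43.9% of all genes that passed and 20.5% that were higher. In TFE3 KO 6 of 6 were higher (51.4% of all genes passed and 25.4% were higher), in TFEB KO 4 of 6 (38.3% and 17.4%) and in DKO 5 of 6 (51.6% and 25.4%). The median log2 fold change of the members was 0.43 in WT, 0.54 in TFE3 KO, 0.33 in TFEB KO and 0.51 in DKO, and that of all genes was between 0.00 and 0.02. TFAP2A was also changed at least 2-fold in each genotype, as 9.66% of all genes were in WT, 11.7% in TFE3 KO, 5.02% in TFEB KO and 11.1% in DKO, and so was ZEB2 in TFE3 KO. WT Torin rests on n = 2. KRT10 passed as lower with Torin in WT (76.1 to 117 in control and 62.8 to 64.9 with Torin), TFEB KO (78.3 to 93.1 and 60.9 to 67.9) and DKO (77.9 to 111 and 49.8 to 64.5), and its part in the results was not tested.

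**Figure D2:**
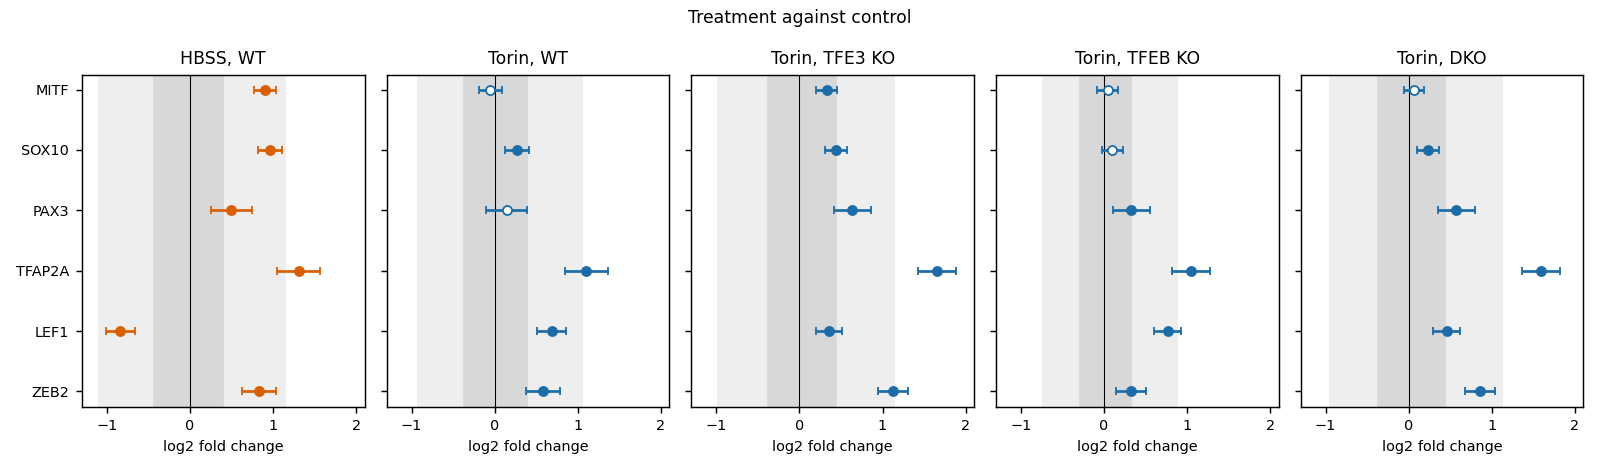
Log2 fold change (horizontal axes) of the 6 tested genes for HBSS in WT (orange) and Torin in each genotype (blue), with 95% confidence intervals from limma; filled points passed at adjusted p under 0.05, open points did not, and grey bands hold the middle 50% and 90% of all genes tested. LEF1 lay at -0.84 with HBSS and at 0.36 to 0.76 with Torin, and TFAP2A lay above 1 in every panel.

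MITF was 735 and 732 in WT Torin, between the lowest and the second WT control library, with a change of -0.05 (95% interval -0.19 to 0.08, adjusted p 0.555). In TFE3 KO it went from 682, 677 and 688 to 843, 853 and 875 without overlap, a change of 0.33 ± 0.06 (SE, adjusted p 1.27e-05). In TFEB KO it was 721, 685 and 734 in control and 748, 705 and 753 with Torin, which overlapped (0.04, 95% interval -0.08 to 0.17, adjusted p 0.608). DKO values also overlapped, at 596, 538 and 532 in control and 589, 601 and 551 with Torin (0.06, 95% interval -0.06 to 0.19, adjusted p 0.401). MITF in DKO was thus the lowest of all groups with and without Torin, and the 2 DKO groups overlapped each other and no other group.

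SOX10 was 548 and 543 in WT Torin, above all WT control libraries, a rise of 0.27 ± 0.07 (SE, adjusted p 0.00189). It rose from 529, 485 and 465 to 670, 679 and 651 in TFE3 KO (0.44 ± 0.06, SE, adjusted p 1.68e-07) and from 491, 446 and 426 to 554, 523 and 524 in DKO (0.23 ± 0.06, SE, adjusted p 0.00221). In TFEB KO it was 429, 436 and 433 in control and 482, 459 and 452 with Torin, a difference of 0.10 that did not pass (adjusted p 0.223) although the libraries did not overlap. PAX3 passed in TFE3 KO, where it went from 43.8, 45.1 and 44.6 to 72.1, 70.8 and 66.2 (0.63 ± 0.11, SE, adjusted p 4.42e-06), and in DKO, where it went from 46.6, 53.0 and 44.8 to 75.1, 70.4 and 69.9 (0.57 ± 0.11, SE, adjusted p 2.82e-05). WT Torin, at 45.2 and 42.0, overlapped its control (0.14, adjusted p 0.367).

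For PAX3 in TFEB KO the Torin libraries held 34.7, 47.6 and 51.1 against 35.5, 36.4 and 32.3 in control, so replicate 1 lay within the control range. The change of 0.33 ± 0.11 (SE, adjusted p 0.0157) was lost without TFEB KO control replicate 3 (0.28, adjusted p 0.0710), TFEB KO Torin replicate 2 (0.27, adjusted p 0.0856) or TFEB KO Torin replicate 3 (0.22, adjusted p 0.155).

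TFAP2A had the largest Torin response of the 6 members in each genotype. It was 694 and 736 in WT Torin, a rise of 1.10 ± 0.12 (SE, adjusted p 7.10e-08). In TFE3 KO it went from 263, 284 and 278 to 989, 895 and 740, a rise of 1.65 ± 0.11 (SE, adjusted p 2.70e-12) that 1.88% of all genes exceeded. In TFEB KO it went from 174, 196 and 214 to 453, 336 and 428 (1.05 ± 0.11, SE, adjusted p 3.48e-08), and in DKO from 147, 178 and 191 to 470, 513 and 579 (1.59 ± 0.11, SE, adjusted p 5.94e-12). No control and Torin libraries of a genotype overlapped.

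LEF1 with Torin reached nearly the same level whatever the genotype. Its Torin libraries held 145 and 142 in WT, 137, 142 and 134 in TFE3 KO, 134, 144 and 148 in TFEB KO, and 139, 142 and 149 in DKO, and neighbours in the order of these 4 groups overlapped. The controls differed more, from 79.2 to 88.5 in TFEB KO to 107 to 108 in TFE3 KO. The log2 fold changes were 0.68 ± 0.09 in WT (SE, adjusted p 1.20e-08), 0.36 ± 0.08 in TFE3 KO (SE, adjusted p 0.000153), 0.76 ± 0.08 in TFEB KO (SE, adjusted p 5.46e-11) and 0.45 ± 0.08 in DKO (SE, adjusted p 3.86e-06). With the doubled column counted as WT Torin, the change in WT was 0.15 (adjusted p 0.669). LEF1 in that column was 46.8, near WT HBSS (47.6 and 51.1) and below both WT Torin libraries kept.

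ZEB2 was 210 and 187 in WT Torin, a rise of 0.58 ± 0.10 (SE, adjusted p 4.89e-06). It went from 142, 137 and 131 to 274, 321 and 308 in TFE3 KO, its highest group (1.13 ± 0.09, SE, adjusted p 4.80e-15). The rise in TFEB KO, from 120, 123 and 129 to 149, 161 and 157, was 0.33 ± 0.09 (SE, adjusted p 0.00283), and that in DKO, from 115, 111 and 97.5 to 202, 204 and 182, was 0.86 ± 0.09 (SE, adjusted p 2.22e-11).

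HBSS and Torin were also set against each other in WT, with 2 libraries each. Of 6 members 4 passed, 3 higher and 1 lower in HBSS, against 49.2% of all genes that passed, 26.1% that were higher and 23.1% that were lower. LEF1 was furthest apart, the only member changed 2-fold (16.6% of all genes were), at -1.52 ± 0.10 (SE, adjusted p 7.31e-18), followed by MITF at 0.95 ± 0.07 (SE, adjusted p 8.10e-15) and SOX10 at 0.69 ± 0.08 (SE, adjusted p 6.88e-10). TFAP2A and ZEB2, which both treatments raised, differed by 0.20 (95% interval -0.08 to 0.48, adjusted p 0.226) and 0.25 (95% interval 0.03 to 0.47, adjusted p 0.0520). ZEB2 passed once replicate number entered the fit as a block (adjusted p 0.0422) and without WT Torin replicate 2 (0.33, adjusted p 0.0434). PAX3 was 0.35 higher in HBSS (adjusted p 0.0277), which was lost without WT HBSS replicate 1 (0.29, adjusted p 0.174) or WT Torin replicate 3 (0.30, adjusted p 0.151), with edgeR (0.32, adjusted p 0.0599) and with DESeq2 (0.33, adjusted p 0.0609).

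The knockouts without drug were compared with WT control next, where TFAP2A was lower in TFEB KO and DKO and MITF was lower in DKO. In TFEB KO TFAP2A was the only member that passed, lower by a log2 fold change of -0.77 ± 0.11 (SE, adjusted p 2.87e-05), where 14.6% of all genes passed and 7.18% were lower. COL1A1 and LUM summed to 2.82 to 4.78 in TFEB KO control and 1.39 to 2.3 in WT control, 1 of the 2 passing as higher, and their part in the result was not tested. In DKO 4 of 6 passed, 3 lower and 1 higher, against 13.1% of all genes that passed, 7.49% that were lower and 5.64% that were higher. TFAP2A was lower by -0.95 ± 0.11 (SE, adjusted p 6.84e-07), which 2.15% of all genes exceeded in size, and MITF by -0.46 ± 0.06 (SE, adjusted p 1.79e-07).

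In DKO ZEB2 was lower by -0.30 ± 0.09 (SE, adjusted p 0.0176) and its libraries overlapped those of WT control, of which replicate 1 held 108. This call was lost without WT control replicate 2 (-0.24, adjusted p 0.119), WT control replicate 3 (-0.21, adjusted p 0.189) or DKO control replicate 3 (-0.23, adjusted p 0.119). LEF1 was higher by 0.23 ± 0.08 (SE, adjusted p 0.0444), which was lost without any 1 of the WT control libraries (0.21 to 0.25, adjusted p 0.0698 to 0.117) and without DKO control replicate 2 (0.24, adjusted p 0.0842) or 3 (0.19, adjusted p 0.167). SOX10 in DKO control differed from WT control by 0.00 (95% interval -0.13 to 0.14, adjusted p 0.978). COL1A1 and LUM summed to 5.01 to 6.62 in DKO control, 1 of the 2 passing as higher than in WT control, and their part in the result was not tested.

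In TFE3 KO LEF1 alone passed, higher by 0.27 ± 0.08 (SE, adjusted p 0.0206), where 9.41% of all genes passed and 3.57% were higher. Its 3 libraries, between 107 and 108, lay above the 3 of WT control, but the call was lost without WT control replicate 1 (0.25, adjusted p 0.0730) or any 1 of the TFE3 KO control libraries (0.26 to 0.27, adjusted p 0.0563 to 0.0656). MITF in TFE3 KO control was below every WT control library and did not pass (-0.16, 95% interval -0.28 to -0.03, adjusted p 0.0986), although it did without WT control replicate 1 (-0.20, adjusted p 0.0453).

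**Figure D3:**
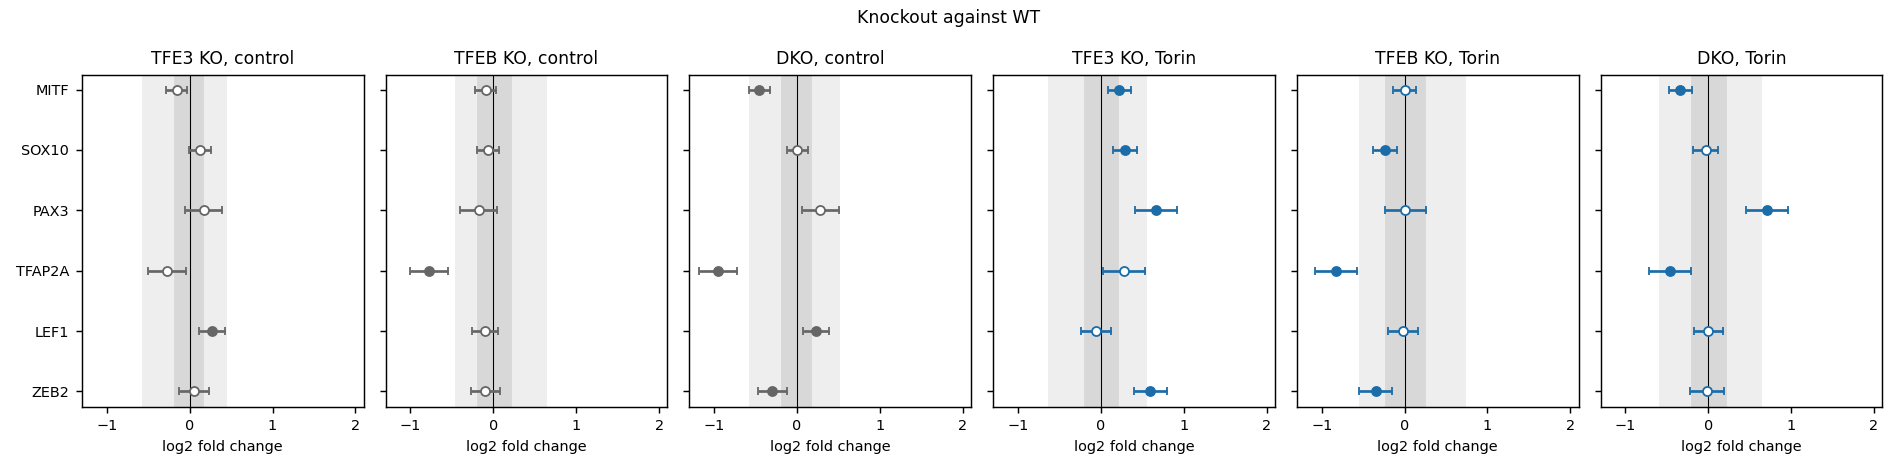
Log2 fold change (horizontal axes) of the 6 tested genes in each knockout against WT, without drug (grey) and with Torin (blue), with 95% confidence intervals from limma; filled points passed at adjusted p under 0.05 and grey bands hold the middle 50% and 90% of all genes tested. TFAP2A was lower in TFEB KO and DKO in both conditions, and PAX3 was higher in TFE3 KO and DKO with Torin.

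The knockouts were also set against each other. DKO control had less MITF than TFE3 KO control (-0.30 ± 0.06, SE, adjusted p 0.000975) and TFEB KO control (-0.36 ± 0.06, SE, adjusted p 1.02e-05), with no overlap in either case. Against TFE3 KO 3 of 6 members passed and all 3 were lower (4.87% of all genes passed and 2.22% were lower), the others being TFAP2A at -0.68 ± 0.11 (SE, adjusted p 0.000259) and ZEB2 at -0.35 ± 0.09 (SE, adjusted p 0.0109). The ZEB2 call was lost without TFE3 KO control replicate 1 (-0.32, adjusted p 0.0686) or DKO control replicate 3 (-0.28, adjusted p 0.0937). Against TFEB KO 3 of 6 passed (25.5% of all genes did), MITF lower (13.7% of all genes were) and 2 higher (11.8%), with PAX3 at 0.46 ± 0.11 (SE, adjusted p 0.00154) and LEF1 at 0.33 ± 0.08 (SE, adjusted p 0.00142) higher in DKO. TFAP2A in these 2 groups overlapped (-0.18, adjusted p 0.256).

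Between the single knockouts without drug 4 of 6 members passed and all 4 were higher in TFE3 KO (29.9% of all genes passed and 14.3% were higher). TFAP2A differed by 0.50 ± 0.11 (SE, adjusted p 0.00113), LEF1 by 0.37 ± 0.08 (SE, adjusted p 0.000309), PAX3 by 0.35 ± 0.11 (SE, adjusted p 0.0135) and SOX10 by 0.19 ± 0.06 (SE, adjusted p 0.0248). The SOX10 call was lost without TFE3 KO control replicate 1 (0.13, adjusted p 0.181) or TFEB KO control replicate 1 (0.18, adjusted p 0.0645), and that of PAX3 without TFEB KO control replicate 3 (0.30, adjusted p 0.0631). With Torin 5 of 6 passed, all higher in TFE3 KO (35.2% of all genes passed and 17.1% were higher), and TFAP2A was also changed 2-fold, as 4.97% of all genes were. These were TFAP2A at 1.11 ± 0.11 (SE, adjusted p 1.54e-08), ZEB2 at 0.95 ± 0.09 (SE, adjusted p 5.25e-12), PAX3 at 0.65 ± 0.11 (SE, adjusted p 5.80e-06), SOX10 at 0.52 ± 0.06 (SE, adjusted p 8.20e-09) and MITF at 0.22 ± 0.06 (SE, adjusted p 0.00367). LEF1 was the exception, at -0.04 (95% interval -0.20 to 0.12, adjusted p 0.730). COL1A1 and LUM were lower in TFE3 KO than in TFEB KO, summing to 0.613 to 2.3 and 2.82 to 4.78 without drug (1 of 2 passed) and to 0.208 to 1.06 and 2.93 to 5.18 with Torin (2 of 2 passed), and their part in these results was not tested.

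With Torin, each knockout was compared with WT Torin. In TFE3 KO 4 of 6 members passed and all were higher, against 9.64% of all genes that passed and 3.41% that were higher. PAX3 was higher by 0.66 ± 0.12 (SE, adjusted p 0.000154) and ZEB2 by 0.60 ± 0.10 (SE, adjusted p 2.43e-05). SOX10, higher by 0.29 ± 0.07 (SE, adjusted p 0.00594), was lost without WT Torin replicate 2 (0.29, adjusted p 0.0575) or 3 (0.28, adjusted p 0.0705). MITF, higher by 0.22 ± 0.07 (SE, adjusted p 0.0270), was lost without WT Torin replicate 2 (0.23, adjusted p 0.141) or 3 (0.22, adjusted p 0.146) and without TFE3 KO Torin replicate 2 (0.23, adjusted p 0.0598) or 3 (0.21, adjusted p 0.0809). It was also lost with edgeR (0.21, adjusted p 0.0644). TFAP2A, at 0.28 (adjusted p 0.167), passed without TFE3 KO Torin replicate 3 (0.40, adjusted p 0.0323).

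In TFEB KO with Torin 3 of 6 members passed and all were lower (18% of all genes passed and 8.56% were lower). TFAP2A was lower by -0.83 ± 0.12 (SE, adjusted p 3.86e-05). ZEB2 was lower by -0.35 ± 0.10 (SE, adjusted p 0.0109), which was lost without WT Torin replicate 2 (-0.27, adjusted p 0.180). SOX10 was lower by -0.23 ± 0.07 (SE, adjusted p 0.0190), which was lost without WT Torin replicate 2 (-0.23, adjusted p 0.111) or 3 (-0.24, adjusted p 0.101) or TFEB KO Torin replicate 3 (-0.22, adjusted p 0.0618). In DKO with Torin 3 of 6 passed (12.1% of all genes did), 1 higher (5.03%) and 2 lower (7.03%). PAX3 was higher by 0.71 ± 0.12 (SE, adjusted p 5.91e-05) and MITF lower by -0.34 ± 0.07 (SE, adjusted p 0.000448). TFAP2A, lower by -0.46 ± 0.12 (SE, adjusted p 0.0142), was lost without WT Torin replicate 2 (-0.50, adjusted p 0.0584) or 3 (-0.42, adjusted p 0.128) or DKO Torin replicate 1 (-0.39, adjusted p 0.0610).

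Whether the Torin response itself depended on genotype was tested as a difference of responses. In TFE3 KO against WT, MITF (0.38 ± 0.09, SE, adjusted p 0.0235) and ZEB2 (0.55 ± 0.13, SE, adjusted p 0.0256) passed, 2 of 6 members where 1.06% of all genes passed and 0.49% were higher. Each of these calls was lost in 7 of the 11 fits that left out 1 library. MITF was also lost with edgeR (adjusted p 0.0509), and ZEB2 in the limma fit of only the groups compared (adjusted p 0.0615). With the doubled column counted as WT Torin the difference was 0.04 for MITF (adjusted p 0.962) and 0.48 for ZEB2 (adjusted p 0.189). MITF was 1500 in that column and 735 and 732 in the WT Torin libraries kept. TFAP2A, at 0.55 (adjusted p 0.140), passed without TFE3 KO Torin replicate 3 (0.67, adjusted p 0.0240). In TFEB KO and in DKO against WT 0 of 6 members passed in limma (1.16% and 0.506% of all genes did). In TFEB KO the smallest adjusted p was 0.402, for ZEB2 at -0.25 (95% interval -0.52 to 0.02). In DKO it was 0.248, for TFAP2A at 0.49 (95% interval 0.15 to 0.84), and PAX3 followed at 0.43 (95% interval 0.09 to 0.76, adjusted p 0.323). Neither edgeR nor DESeq2 called a member in these 2 comparisons, and at an unadjusted p under 0.05 the 6 members included 0 in TFEB KO, where 13.6% of all genes passed that limit, and 3 in DKO, where 9.82% did.

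The single knockouts also differed from each other in their Torin response, a comparison that used no WT library and was added after the values had been seen. Of 6 members 5 passed, 4 with a larger value in TFE3 KO and 1 with a smaller one, where 7.68% of all genes passed, 3.1% in the first direction and 4.58% in the second. ZEB2 differed by 0.80 ± 0.13 (SE, adjusted p 1.32e-05) and TFAP2A by 0.61 ± 0.16 (SE, adjusted p 0.0159). LEF1, whose rise was larger in TFEB KO, differed by -0.41 ± 0.11 (SE, adjusted p 0.0151). LEF1 in TFE3 KO against TFEB KO was 0.37 without drug and -0.04 with Torin, so the knockouts differed in their controls. The calls of ZEB2, TFAP2A and LEF1 held in each of the 12 fits that left out 1 library. SOX10 differed by 0.34 ± 0.09 (SE, adjusted p 0.0141), which was lost without TFE3 KO control replicate 3 (0.29, adjusted p 0.0610). MITF differed by 0.28 ± 0.09 (SE, adjusted p 0.0312), which was lost in 8 of the 12 fits (0.25 to 0.31 over the 12, adjusted p 0.0295 to 0.0866) and with edgeR (0.26, adjusted p 0.0612).

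ZEB1 (chr10:31318495-31529814, plus strand) was at the limit of detection. Over the 25 libraries it had 56 reads in all, with no read in 5 libraries and 3 reads or fewer in 19, and it was not tested because fewer than 3 libraries reached a value of 1. The highest values were the 3 TFEB KO Torin libraries, at 0.862, 1.26 and 1.02 from 5, 8 and 5 reads, and TFEB KO control held 0.683, 0 and 0.166 from 3, 0 and 1. ZEB1 made up 0.776% or less of the summed ZEB1 and ZEB2 values in every library.

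TFAP2A and ZEB2 were most alike (Pearson r 0.91 on log2 values), followed by SOX10 and ZEB2 (0.81), SOX10 and TFAP2A (0.78) and MITF and SOX10 (0.77). MITF and LEF1 ran in opposite directions (-0.60), and MITF and PAX3 had an r of 0.07. These are descriptions, since the libraries share their 9 groups and 2 HBSS libraries stand far from the rest for MITF and LEF1.

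**Figure D4:**
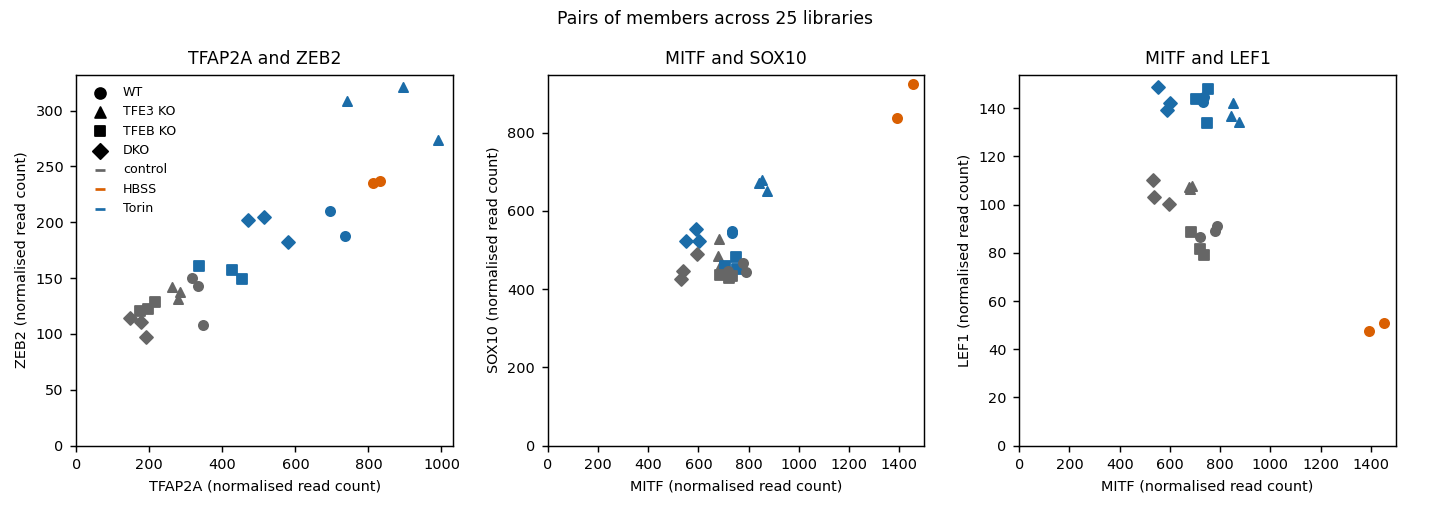
Normalised read counts of pairs of members in 25 libraries (linear axes), with colour for treatment and symbol for genotype. TFAP2A and ZEB2 rose together from DKO control to TFE3 KO Torin, while the 2 HBSS libraries, at 1392 and 1454, stood apart on the MITF axis with high SOX10 and low LEF1.

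Of 9855 other genes with a mean of at least 5, DCT, the dopachrome tautomerase of pigment synthesis, was most like MITF (r 0.97), followed by NCOA7 (0.94), SERTAD2 (0.93), RBPJ (0.92) and HIPK2 (0.92). DCT was 728 ± 27.7 (SD, n = 3) in WT control, 4039 ± 11.7 (SD, n = 2) in HBSS, 687 ± 8.07 (SD, n = 2) in WT Torin and 432 ± 65.3 (SD, n = 3) in DKO control. For TFAP2A the closest were IRS2 (0.98), an insulin receptor substrate, and EDNRB (0.96), the endothelin receptor of melanoblasts. SOX4 (0.97) and CHD6 (0.96) were closest to ZEB2, TLE1 (0.96) and CECR2 (0.95) to SOX10, SP100 (0.94) and PEX10 (0.93) to LEF1, and PCBP2 (0.88) and FLJ46906 (0.87) to PAX3.

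Further lists of genes around the members are read against all genes tested, of which 23.6% rose and 24.7% fell with HBSS. With Torin 20.5% of all genes rose and 23.4% fell in WT, 25.4% and 26% in TFE3 KO, 17.4% and 21% in TFEB KO, and 25.4% and 26.2% in DKO. Of 27 pigment cell genes that MITF and SOX10 are known to drive, all tested, 18 rose (66.7%) and 5 fell (18.5%) with HBSS, with a median log2 fold change of 0.80. DCT rose by 2.47 ± 0.08 (SE, adjusted p 1.31e-28) and RAB27A, which tethers melanosomes, by 2.02 ± 0.10 (SE, adjusted p 7.19e-22), while MC1R, the melanocortin receptor, changed by -1.58 ± 0.11 (SE, adjusted p 3.27e-16). With Torin 13 rose (48.1%) and 3 fell (11.1%) in WT, 16 (59.3%) and 4 (14.8%) in TFE3 KO, 15 (55.6%) and 2 (7.41%) in TFEB KO, and 14 (51.9%) and 4 (14.8%) in DKO. OCA2, a melanosomal transporter, rose by 1.37 ± 0.13 (SE, adjusted p 8.57e-12) in WT and by 1.70 ± 0.12 (SE, adjusted p 1.03e-16) in TFE3 KO. TYR, the tyrosinase that starts melanin synthesis, changed by -0.49 ± 0.09 (SE, adjusted p 1.51e-05) and -0.38 ± 0.08 (SE, adjusted p 0.000111). In DKO control 5 were higher than in WT control (18.5%, and 5.64% of all genes) and 10 lower (37.0%, and 7.49% of all genes), the lower ones including IRF4 (-1.22 ± 0.17, SE, adjusted p 2.45e-07), a factor that acts with MITF at TYR, and MET (-0.88 ± 0.09, SE, adjusted p 4.80e-11).

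Of 25 other factors known to act on the MITF gene 22 were tested, and 10 rose (45.5%) and 6 fell (27.3%, near the share of all genes) with HBSS. ATF4, the factor of the amino acid response, rose by 1.87 ± 0.07 (SE, adjusted p 5.05e-26), DDIT3 by 1.76 ± 0.13 (SE, adjusted p 2.30e-16) and BHLHE40, a repressor of MITF, by 1.26 ± 0.24 (SE, adjusted p 1.60e-05). With Torin 6 rose (27.3%) and 5 fell (22.7%) in WT, 9 (40.9%) and 6 (27.3%) in TFE3 KO, 7 (31.8%) and 6 (27.3%) in TFEB KO, and 6 (27.3%) and 5 (22.7%) in DKO. The shares that fell, and those that rose in DKO, were near those of all genes. POU3F2, also called BRN2, a POU factor of invasive melanoma cells, rose by 0.89 ± 0.11 (SE, adjusted p 1.20e-08) in WT and by 1.49 ± 0.10 (SE, adjusted p 4.03e-17) in TFE3 KO, and was lower in DKO control than in WT control (-0.69 ± 0.10, SE, adjusted p 1.47e-06).

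Of 21 targets of WNT signalling and partners of LEF1 19 were tested, and 3 rose (15.8%) and 8 fell (42.1%) with HBSS, among the latter NKD1 (-1.35 ± 0.16, SE, adjusted p 1.29e-09), a feedback inhibitor of the pathway. With Torin, where LEF1 rose, NKD1 also changed by -0.76 ± 0.16 (SE, adjusted p 0.000130) in WT and TCF7, a relative of LEF1, by -1.01 ± 0.14 (SE, adjusted p 1.30e-07). On this list 4 rose (21.1%) and 7 fell (36.8%) with Torin in WT, 3 (15.8%) and 8 (42.1%) in TFE3 KO, 2 (10.5%) and 6 (31.6%) in TFEB KO, and 5 (26.3%) and 8 (42.1%) in DKO, so the shares that rose were near or below those of all genes. Of the genes that ZEB factors are known to read out, only 11 of 23 were tested. With HBSS 3 rose (27.3%, near the share of all genes) and 4 fell (36.4%). With Torin 5 rose (45.5%) in each genotype, while 2 fell (18.2%) in WT, 4 (36.4%) in TFE3 KO and 3 (27.3%) in TFEB KO and in DKO. FN1, fibronectin, rose by 1.27 ± 0.21 (SE, adjusted p 6.72e-05) with HBSS and 1.94 ± 0.21 (SE, adjusted p 6.44e-07) with Torin in WT, and ESRP1, an epithelial splicing factor, rose by 1.70 ± 0.13 (SE, adjusted p 4.70e-15) and 0.89 ± 0.13 (SE, adjusted p 3.40e-07). Of the 3 other members of the MITF family listed, TFE3 and TFEB were tested. With HBSS 1 rose, TFEB, from a mean of 3.25 in WT control to 29.2, while TFE3 was 24.0 and 24.4. With Torin 2 rose in TFE3 KO, among them the edited TFE3 itself, from a mean of 6.30 to 10.8. In TFEB KO 1 fell with Torin, TFE3, from a mean of 27.0 to 17.9. In DKO control 2 were lower than in WT control. TFE3 and TFEB are the genes edited in the knockouts, and the part of the editing in their lower DKO values was not tested. TFEB had a mean of 0.661 in DKO control and 1.11 in TFEB KO control. It was also low in TFE3 KO, where it was not edited, at a mean of 0.681 in control and 1.84 with Torin. The detection floor was 0.460 to 0.711.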

How the data were processed

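The table deposited by the authors holds a signal for each gene: its read count divided by 1 factor per library, on a scale close to CPM. Per the study's methods and the labels, reads were checked with FastQC 0.11.9, trimmed with trim_galore and cutadapt 2.10, mapped to hg38 with STAR 2.7.8a and normalised with edgeR. The counter, annotation, scaling and filter on low genes are not given in the sources used here. In each library 100% of values were whole multiples of 1 read (tolerance 0.001), which gave the reads used by edgeR 4.0.16 and DESeq2 1.42.0 as alternatives.

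The 13052 genes that reached 1 in 3 or more libraries were tested on log2(value + 1) with limma 3.58.1 (eBayes with trend and robust, 9 groups in 1 fit, R 4.3.3), 2-sided, with Benjamini-Hochberg adjustment within each comparison. Passed means an adjusted p under 0.05. Folds of low genes are drawn towards 0 by the added 1. The members and lists were chosen with earlier results of these data known. Named from each further list were up to 3 genes at either end of the log2 fold change that passed with a mean of at least 5, of which some are given. For likeness, 5 genes were named for MITF and 2 for each other member. The difference in Torin response between TFE3 KO and TFEB KO was added after the data had been seen. The fit was tested on simulated data. Whether counting used strand is not stated, so reads of ZEB2 and its antisense gene ZEB2-AS1 cannot be told apart where they overlap. SOX9 was not analysed here. Alternatives were another pseudocount, filter, scaling and tool, only the groups compared, a replicate block, the identical column kept and each library left out.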

Additional observations from a re-analysis of the deposited data

Results flagged for a closer look

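The Torin response differed between genotypes for several members, by limma's test of the difference itself. Against WT, the response in TFE3 KO was larger by 0.38 on the log2 scale for MITF (adjusted p 0.0235) and by 0.55 for ZEB2 (adjusted p 0.0256), and all 3 TFE3 KO Torin libraries lay above all 3 TFE3 KO controls for both genes. Each of these calls was lost in 7 of the 11 fits that left out 1 library: MITF ranged from 0.36 to 0.42 (adjusted p 0.00751 to 0.115) and ZEB2 from 0.46 to 0.69 (adjusted p 0.000604 to 0.229). The libraries whose removal lost the MITF call were WT control replicates 2 and 3, WT Torin replicates 2 and 3, TFE3 KO control replicates 1 and 2 and TFE3 KO Torin replicate 3. For ZEB2 they were WT control replicates 2 and 3, WT Torin replicate 3, TFE3 KO control replicates 2 and 3 and TFE3 KO Torin replicates 2 and 3.

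Between the single knockouts, the response in TFE3 KO minus that in TFEB KO was 0.28 for MITF (adjusted p 0.0312), 0.34 for SOX10 (adjusted p 0.0141), 0.61 for TFAP2A (adjusted p 0.0159), -0.41 for LEF1 (adjusted p 0.0151) and 0.80 for ZEB2 (adjusted p 1.32e-05). Each genotype is 1 clone, so the difference between these clones and that between these genotypes cannot be told apart.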

How the results depend on the processing

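Of 120 results (6 members in 20 comparisons), 67 passed. No call changed with a pseudocount of 0.1 or no filter on low values. A minimum value of 5, the replicate block and the identical column counted as WT HBSS each added 1 call (ZEB2, HBSS against Torin), DESeq2 and median-of-ratios rescaling each lost 1, and edgeR lost 4. Deviations from group means had a median r of 0.013 in same-numbered libraries (92 pairs, 14 over 0.1). In other-numbered libraries it was -0.005 (185 pairs, 20 over 0.1). These values do not settle whether libraries were paired, and the block is not read as a pairing. Fitting only the groups compared lost 3 calls and added 5: it gave 2 members rather than 1 for TFE3 KO against WT without drug (TFAP2A added, adjusted p 0.0144) and 2 rather than 4 for DKO (LEF1 and ZEB2 lost), lost ZEB2 for the Torin response of TFE3 KO against WT (adjusted p 0.0615) and added TFAP2A there (0.0158) and in TFE3 KO against WT with Torin (0.0417), and TFAP2A (0.000127) and ZEB2 (0.0014) in HBSS against Torin. With the identical column counted as WT Torin 25 calls were lost, among them calls between groups other than WT Torin, whose fold changes stayed as they were, and the members that passed numbered 3 for Torin in DKO, 0, 1 and 2 for TFE3 KO control, DKO control and TFE3 KO Torin against WT, 1 for TFE3 KO against TFEB KO, DKO against TFE3 KO and DKO against TFEB KO without drug, and 0 and 2 for the Torin response of TFE3 KO against WT and TFEB KO. Counted under both labels the numbers were the same, except 1 for the last. Calls over all genes fell too in most of these comparisons: with the column under both labels from 1228 to 500 for TFE3 KO against WT control and from 1003 to 275 for the Torin response of TFE3 KO against TFEB KO, but they rose from 1258 to 2030 for TFE3 KO against WT with Torin. MITF in TFE3 KO against WT with Torin then turned to -0.12 (adjusted p 0.631 and 0.621). MITF in the identical column, at 1500, was nearer the WT HBSS libraries kept (1392 and 1454) than the WT Torin ones (735 and 732). With edgeR 1 member passed for the Torin response of TFE3 KO against WT. Leaving out 1 library at a time gave 0 to 1 members for TFE3 KO and 2 to 4 for DKO against WT control, 2 to 4 for TFE3 KO and 1 to 3 for TFEB KO against WT Torin, and 0 to 2 and 3 to 5 for the Torin response of TFE3 KO against WT and TFEB KO. Over all members 58 of 804 such results lost and 4 gained their call. WT HBSS and WT Torin had 2 libraries, so leaving out 1 leaves a lone library that is assumed to vary like the other groups. Depth limited ZEB1, which had 3 reads or fewer in 19 libraries.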

Other observations

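Of 35 other factors and receptors of the neural crest 28 were tested. With HBSS 10 rose (35.7%, and 23.6% of all genes) and 9 fell (32.1%, and 24.7% of all genes). SOX6, a SoxD factor, rose by 1.97 ± 0.10 (SE, adjusted p 2.58e-21), ETS1 by 1.51 ± 0.11 (SE, adjusted p 5.89e-16) and KIT, the stem cell factor receptor of melanoblasts, by 1.48 ± 0.10 (SE, adjusted p 1.80e-17), while DLX1 changed by -1.99 ± 0.22 (SE, adjusted p 1.77e-10) and ID1, an inhibitor of helix-loop-helix factors, by -1.29 ± 0.18 (SE, adjusted p 8.48e-08). With Torin 10 rose in WT (35.7%, and 20.5% of all genes), 11 in TFE3 KO (39.3% and 25.4%), 8 in TFEB KO (28.6% and 17.4%) and 11 in DKO (39.3% and 25.4%). Those that fell numbered 6 in WT (21.4%, and 23.4% of all genes), 7 in TFE3 KO (25% and 26%), 7 in TFEB KO (25% and 21%) and 8 in DKO (28.6% and 26.2%), near the shares of all genes. In TFE3 KO SOX4 rose by 1.45 ± 0.07 (SE, adjusted p 3.56e-22), KIT by 1.34 ± 0.09 (SE, adjusted p 7.55e-18) and EDNRB by 1.24 ± 0.08 (SE, adjusted p 2.87e-18). SOX4 was 218 ± 8.95 (SD, n = 3) in TFE3 KO control and 596 ± 19.1 (SD, n = 3) with Torin, against 184 ± 9.28 (SD, n = 3) and 236 ± 3.22 (SD, n = 3) in TFEB KO.

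Of the 8 melanocyte markers, 7 rose (87.5%, and 23.6% of all genes) and 1 fell (12.5% and 24.7%) with HBSS, and 4 rose (20.5% of all genes did) and 2 fell (25% and 23.4%) with Torin in WT.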
